A study of Bos taurus with 3 samples.

Results

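Genes of the desmosome, adherens junction, tight junction and gap junction, with the epithelial genes EPCAM, ESRP1 and ST14, were examined in cultured bovine ovarian cells. The genes were listed as 58 symbols, and a member was measured where a probe set of the array carried that symbol and no other. In this way 47 of the 58 symbols were measured, out of 9155 genes with a symbol on the array. PVRL2 is an older symbol of NECTIN2, which was measured under its current name, so the list holds 57 genes. The other 10 were not analysed here, and they are DSG2, DSP, PPL, EVPL, CTNND1, OCLN, MARVELD2, CGNL1, GJA4 and GJA5. Expression was compared between 2 isolates of fetal Gonadal Ridge Epithelial-Like (GREL) cells and 1 culture of adult ovarian fibroblasts, each hybridised to 1 Affymetrix Bovine Genome Array. GREL cells are polygonal cells grown from collagenase-dispersed fetal ovaries, here from fetuses labelled as 130 days of gestation, and the study describes both isolates as enriched by clonal selection. The fibroblastic cells came from the medullary stroma of an adult ovary. All cells were cultured in medium with fetal calf serum, without any treatment under comparison. Fetal and adult age, ovarian region and cell type differ together between the groups and cannot be told apart.

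Junctions hold neighbouring epithelial cells together and seal or connect them. Desmosomes join keratin filaments of adjacent cells through desmosomal cadherins (desmogleins and desmocollins) and a plaque of plakoglobin, plakophilins and desmoplakin. Adherens junctions join actin filaments through classical cadherins and catenins. Tight junctions, made of claudins and other membrane proteins on a cytoplasmic plaque, limit passage between cells, and gap junctions are channels of connexins. Fibroblasts also make adherens and gap junctions but few desmosomes or tight junctions. In the ovary, granulosa cells are joined to each other and to the oocyte by gap junctions.

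Values are log2 expression after robust multi-array averaging (RMA), deposited to 1 decimal, so that a difference of 1 is a doubling. A gene is given by its probe set of highest mean. The signal of a probe set depends also on its sequence, so folds are taken only between arrays for the same probe set. As a rough guide to signal, dim here means below the median of all probe sets on each of the 3 arrays, and bright means above the background level described below on each of them. Values are listed in the order fibroblasts, isolate 1, isolate 2. Of 10 measured markers of simple epithelium, KRT19 (7.1, 11.3 and 11.6) and KRT7 (2.3, 4.4 and 4.9) were over 3-fold higher in both isolates. In all 6 of the 10 were higher in both, and 3 (KRT14, KRT20 and KRT5) were lower in both by less than 2-fold. The list includes basal keratins both among the lower genes (KRT5 and KRT14) and among the higher ones (KRT15 and KRT17). KRT18 was bright in the fibroblasts as well, at 10.4, 11.4 and 11.8. Its summed log2 level was 35.5, 44.4 and 45.9. Of 16 stromal fibroblast markers, 13 were lower in both isolates and 4 of these over 3-fold, with sums of 138.5, 115.7 and 106.6. Between the isolates, 5 of the 16 stromal markers were over 1 log2 unit apart, and these 5 were higher in isolate 1. The vimentin gene VIM stood at 10.9, 10.9 and 10.8, so the transcript of this mesenchymal intermediate filament differed by at most 0.1 between arrays. FOXL2, a transcription factor of granulosa cells, was dim at 1.8, 1.9 and 2.0. In tissue sections, by contrast, the study found strong FOXL2 protein staining of GREL cells. Of the 10 measured granulosa cell markers, 6 were dim, FOXL2 among them. Those not dim include FST (9.6, 8.6 and 8.8) and NR5A1 (5.6, 4.4 and 4.3), both lower in the isolates than in the fibroblasts. No measured marker of endothelium, blood cells or germ cells was above the background level on any array. That level is high, and 88.5% of all genes were above it on no array, so it cannot show that such cells were absent. In the fibroblasts the germ cell marker KIT read 5.7 and the endothelial marker ENG 5.6. The part of these markers in the differences between cultures was not tested.

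A larger share of junction genes than of all genes was higher in the GREL isolates, a description that carries no test. The members were chosen with earlier results of these data known, so the larger share may be partly built in. PKP2, LSR and GJB2 are among the genes that the study listed as over 3-fold higher on these arrays. Both isolates exceeded the fibroblasts by over 3-fold in 8 of 47 members, which are PERP, CDH3, PKP2, LSR, GJB2, CLDN6, CLDN11 and PKP4. This is 17.0% of the members, and 2.38% of all 9155 genes were over 3-fold higher. For 3 of the 8, GJB2, CLDN6 and CLDN11, the counted probe set is the lowest of the gene's probe sets on the fibroblast array and has the highest mean through the GREL arrays. The other 5 were also over 3-fold higher by the mean of a gene's probe sets, which is 10.6% of the members beside 1.96% of all genes under that rule. Of these 5 only PKP2 has a further probe set, so the rule could not change the others. A single member, JAM2, was over 3-fold lower in both isolates, which is 2.13% of the members beside 2.38% of all genes. At over 2-fold, DSC2, CDH2, CDH13, F11R and GJC1 joined the higher members to make 13 (27.7%), with a background of 5.80%, and JAM2 was the only lower one (background 4.78%). In both isolates 29 of the members (61.7%) were above the fibroblasts by any amount, beside 41.6% of all genes, and 8 were below. The median difference, GREL mean minus fibroblasts, was 0.35 over the members and 0.05 over all genes.

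**Figure D1:**
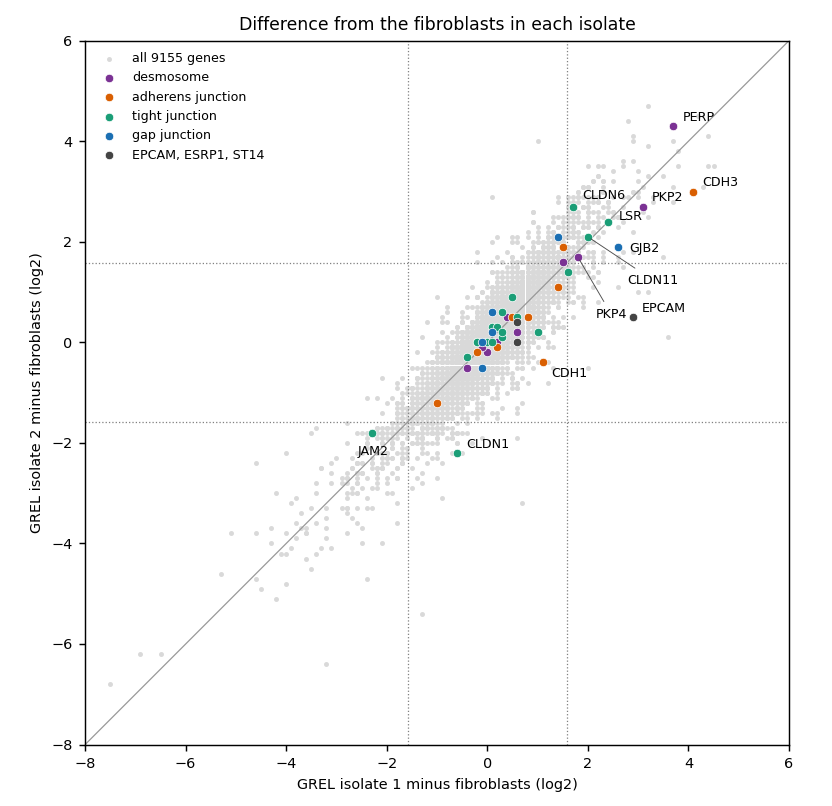
Difference of each gene from the fibroblasts in GREL isolate 1 (x axis) and GREL isolate 2 (y axis), both in log2 units, for all 9155 genes (grey) and the 47 junction genes (coloured by junction). Dotted lines mark 3-fold and the diagonal marks equal differences; 8 junction genes lie beyond 3-fold in the upper right and JAM2 alone in the lower left, and both axes share the 1 fibroblast array.

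**Figure D2:**
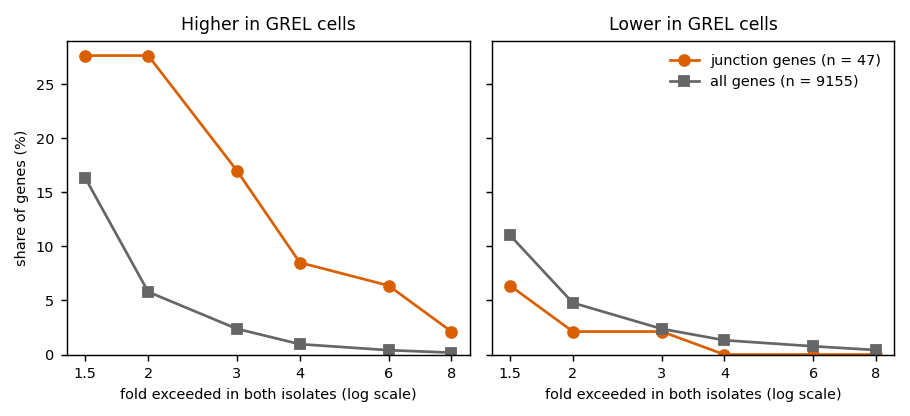
Share of genes (y axis, %) that exceeded a given fold in both isolates (x axis, log scale), for the 47 junction genes and all 9155 genes, higher in GREL cells on the left and lower on the right. On the left the junction genes lie above all genes at each fold drawn, and on the right they lie at or below all genes.

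No difference could be called significant by the main test. Limma, fitted to all 24016 probe sets with the spread taken from the 2 isolates alone, called 0 probe sets higher and 0 lower after Benjamini-Hochberg adjustment (background 0%), and so 0 members. The smallest adjusted p among the members was 0.182. At an unadjusted p under 0.05, limma passed 12 members as higher and 4 as lower, beside 1174 and 1012 of the 9155 genes. The methods' t-test, the form that the study's analysis of variance takes with 2 groups, could be computed for the 42 members whose isolates differ in their rounded values. It called 0 and passed 3 higher and 0 lower unadjusted, beside 186 higher and 208 lower of 20503 probe sets. With a robust prior limma called 2 of the 47 members higher, LSR and CTNNB1, each with an adjusted p of 0.045, and 0 lower. Among all 9155 genes it called 295 higher and 239 lower, and among all probe sets 2.38% and 2.57%. The rounded values of the isolates coincide in LSR and CTNNB1, which leaves no measured spread, so their standard error (SE) of 0.027 comes from limma's prior alone. An SE of 0.075, as for PKP4, CLDN11 and TJP1, stands for a gap of 1 rounding step, 0.1, and is no mark of precision. The fibroblasts have 1 array, so their own spread is unknown, and p-values here measure only the spread between 2 isolates, which limma combines with its prior.

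**Figure D3:**
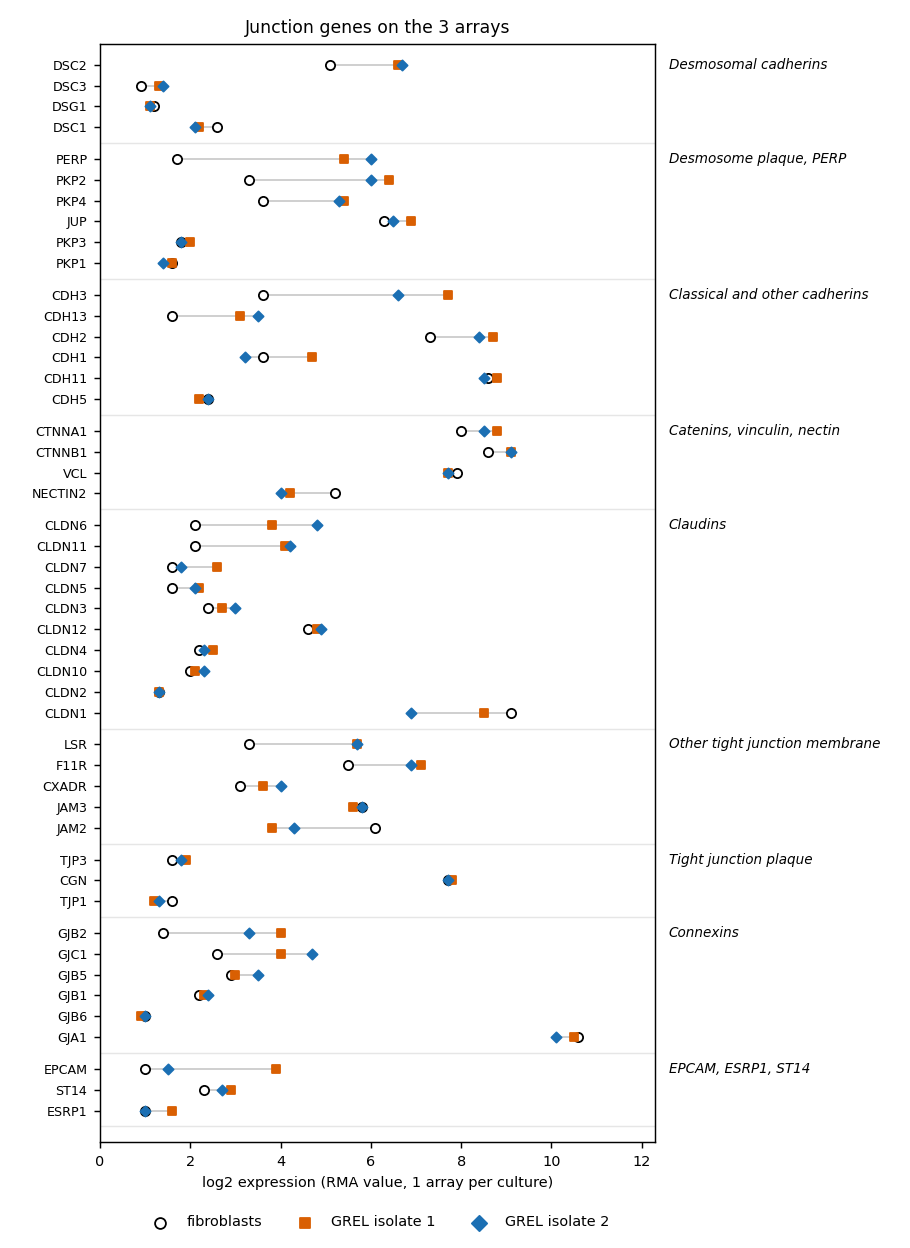
log2 expression (x axis, RMA value) of the 47 measured junction genes (y axis, grouped by role) on the 3 arrays, 1 array for each culture: open circles for the fibroblasts, squares for GREL isolate 1 and diamonds for GREL isolate 2. PERP, PKP2, CDH3 and LSR show the widest separation of both isolates from the fibroblasts, while EPCAM, CLDN1 and CDH1 show isolates far apart.

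Among measured desmosome genes, PERP, PKP2 and PKP4 were over 3-fold higher in GREL cells, while other plakophilins and most measured desmosomal cadherins were dim. The cadherin gene DSG2 and the desmoplakin gene DSP were not analysed here, and the study listed both as over 3-fold higher in GREL cells. With 10 genes measured, 3 passed 3-fold upwards and 0 downwards, and the median difference was 0.43. PERP encodes a membrane protein needed for desmosome assembly, and it read 1.7 in the fibroblasts, 5.4 in isolate 1 and 6.0 in isolate 2. Both isolates lay above the fibroblasts, where the gene was close to the lowest signals of the array, so the size of its fold is uncertain. The mean log2 difference was 4.0 (SE 0.42, limma adjusted p = 0.20). PKP2, plakophilin 2, the plakophilin of simple epithelia and heart muscle, read 3.3, 6.4 and 6.0, with a difference of 2.90 (SE 0.28, adjusted p = 0.195). A second probe set of PKP2 read 1.2, 3.9 and 2.8 and so also separated both isolates from the fibroblasts by over 3-fold. PKP4, an armadillo protein found in both desmosomes and adherens junctions, read 3.6, 5.4 and 5.3, a difference of 1.75 (SE 0.075, adjusted p = 0.182).

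The widely expressed desmocollin DSC2 read 5.1, 6.6 and 6.7, over 2-fold higher in both isolates. JUP, the plakoglobin shared by desmosomes and adherens junctions, read 6.3, 6.9 and 6.5, a mean difference no larger than the gap between isolates. The remaining desmosome genes gave no such separation, among them the stratified epithelium genes PKP1, DSG1, DSC1 and DSC3. PKP1 read 1.6, 1.6 and 1.4, and PKP3 read 1.8, 2.0 and 1.8. DSG1 stood at 1.2, 1.1 and 1.1, and DSC3 at 0.9, 1.3 and 1.4. DSC1 was slightly lower in both isolates, at 2.6 against 2.2 and 2.1. These 5 genes were dim, below array medians of 2.9, 3.0 and 2.9.

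The adherens junction genes differed by cadherin. Of 10 measured, 1 was over 3-fold higher and 0 lower, and 3 of the 6 cadherins (CDH3, CDH13 and CDH2) were over 2-fold higher in both isolates. CDH3, P-cadherin, a classical cadherin of epithelia, read 3.6 in the fibroblasts, 7.7 in isolate 1 and 6.6 in isolate 2. The mean difference was 3.55 (SE 0.77, adjusted p = 0.264). On none of the arrays, GREL or fibroblast, did CDH3 pass the background level. Its isolates were themselves 1.10 log2 units apart, less than the distance of either from the fibroblasts. CDH2, N-cadherin, which is typical of mesenchyme and also of granulosa cells, read 7.3, 8.7 and 8.4, a difference of 1.25 (SE 0.21, adjusted p = 0.230). The membrane-anchored T-cadherin CDH13, which lacks a cytoplasmic tail, read 1.6, 3.1 and 3.5.

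CDH1, E-cadherin, the main cadherin of most epithelia, did not follow CDH3. It read 3.6, 4.7 and 3.2, so that isolate 1 lay above the fibroblasts and isolate 2 below them. The mean difference of 0.35 (SE 1.04, adjusted p = 0.864) was smaller than the 1.5 units between isolates, and a second probe set read 1.8, 1.9 and 1.7. CDH11, a cadherin of mesenchymal cells, was bright at 8.6, 8.8 and 8.5. CDH5, the cadherin of endothelial junctions, was dim at 2.4, 2.2 and 2.4.

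The cytoplasmic partners of the cadherins differed by less than 2-fold between the cultures. CTNNB1, beta-catenin, was bright at 8.6, 9.1 and 9.1, a difference of 0.50 (SE 0.027 from the prior alone, adjusted p = 0.182). The alpha-catenin CTNNA1 read 8.0, 8.8 and 8.5. Vinculin, VCL, which links catenins to actin, read 7.9, 7.7 and 7.7, and its second probe set 3.8, 3.9 and 3.6. NECTIN2, an immunoglobulin-like adhesion protein, was lower in both isolates at 5.2 against 4.2 and 4.0, and its 2 further probe sets were also lower. By its probe set of highest mean, each of these 4 genes was within 3-fold of the fibroblasts. A further probe set of NECTIN2 (4.9, 4.1 and 3.3) was over 3-fold lower in isolate 2 only.

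Of 18 measured tight junction genes, 3 were over 3-fold higher (LSR, CLDN6 and CLDN11) and 1 lower (JAM2), with a median difference of 0.25. Of 10 claudins, 8 were higher in both isolates, most by less than 2-fold. CLDN6, a claudin of embryonic epithelia, read 2.1, 3.8 and 4.8, a difference of 2.20 (SE 0.70, adjusted p = 0.306). Its further probe set read 3.2, 3.5 and 3.9, a separation of less than 2-fold. CLDN11, known from the tight junctions of Sertoli cells and myelin, read 2.1, 4.1 and 4.2, a difference of 2.05 (SE 0.075, adjusted p = 0.182). CLDN7, a claudin of epithelia that binds EPCAM, read 1.6, 2.6 and 1.8. The endothelial claudin CLDN5 read 1.6, 2.2 and 2.1.

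The epithelial claudins CLDN3 (2.4, 2.7 and 3.0) and CLDN4 (2.2, 2.5 and 2.3) differed by less than 2-fold, as did CLDN10 (2.0, 2.1 and 2.3) and CLDN12 (4.6, 4.8 and 4.9). CLDN2, a pore-forming claudin, read 1.3 on each of the 3 arrays. CLDN1, a barrier claudin of epithelia, was the only measured claudin below the fibroblasts in both isolates. It was highest in the fibroblasts at 9.1, with 8.5 in isolate 1 and 6.9 in isolate 2, and its second probe set read 8.6, 7.6 and 5.9. The difference of -1.40 (SE 1.11, adjusted p = 0.554) was smaller than the 1.60 units between isolates.

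LSR, the receptor at the corners where 3 cells meet, which recruits tricellulin, read 3.3 in the fibroblasts and 5.7 in both isolates. This was 5.28-fold in each isolate, a difference of 2.40 (SE 0.027 from the prior alone, adjusted p = 0.182). The junctional adhesion molecules split. F11R (JAM-A), the form of epithelia, read 5.5, 7.1 and 6.9, and its second probe set read 2.2, 3.5 and 3.2. JAM2 (JAM-B), a form of endothelium and other cells, read 6.1, 3.8 and 4.3, at 0.203 and 0.287 of the fibroblast level. Its difference was -2.05 (SE 0.35, adjusted p = 0.233), and the second probe set of JAM2 was also over 3-fold lower in both isolates. JAM3 (JAM-C), a partner of JAM2, read 5.8, 5.6 and 5.8.

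CXADR, a related adhesion protein that also serves as a virus receptor, read 3.1, 3.6 and 4.0. The plaque genes showed little difference. TJP1, the scaffold ZO-1, was dim at 1.6, 1.2 and 1.3 (difference -0.35, SE 0.075, adjusted p = 0.261), and so was its second probe set at 1.4, 1.1 and 1.1. TJP3, the scaffold ZO-3, read 1.6, 1.9 and 1.8. Cingulin, CGN, was steady at 7.7, 7.8 and 7.7.

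Of 6 measured connexins, GJB2 was over 3-fold higher and GJC1 over 2-fold higher in both isolates, and 0 were lower by such folds. GJB2, connexin 26 of epithelia, read 1.4, 4.0 and 3.3, a difference of 2.25 (SE 0.49, adjusted p = 0.265). Its 2 further probe sets stayed dim, at 1.7 on each array and at 1.6, 1.5 and 1.4. GJC1, connexin 45, read 2.6, 4.0 and 4.7. GJA1, connexin 43, the common gap junction protein of granulosa cells and fibroblasts, was bright at 10.6, 10.5 and 10.1, and the difference of -0.30 (SE 0.28, adjusted p = 0.607) was smaller than the gap between isolates. The epithelial connexins GJB1 (2.2, 2.3 and 2.4), GJB5 (2.9, 3.0 and 3.5) and GJB6 (1.0, 0.9 and 1.0) showed no separation over 2-fold.

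EPCAM, an adhesion molecule of simple epithelia, had a gap between isolates larger than its mean difference from the fibroblasts. It read 1.0 in the fibroblasts, 3.9 in isolate 1 and 1.5 in isolate 2, so that isolate 2 stayed close to the fibroblasts at a very low signal. The mean difference was 1.70 (SE 1.67, adjusted p = 0.634). The epithelial splicing regulator ESRP1 read 1.0, 1.6 and 1.0, and the membrane protease ST14 (matriptase) read 2.3, 2.9 and 2.7.

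The isolates were over 1 log2 unit apart in 4 members, CDH1, CDH3, CLDN1 and EPCAM, and isolate 1 was the higher in all 4. This is 8.51% of the members beside 2.30% of all genes, where 114 genes were higher in isolate 1 and 97 in isolate 2. The typical gap was the same, with a median of 0.2 in the members and in all genes. The difference from the fibroblasts exceeded the gap between isolates in 29 members (61.7%), beside 64.5% of all genes. In the 8 members over 3-fold higher, the separation from the fibroblasts was larger than the gap. The rule of over 3-fold in each isolate nearly ensures this, so it is no check of agreement between isolates.

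Few junction genes stood above background on these arrays, and few genes at large did. With no detection calls in the deposited values, a background level was taken as the 95th percentile of 52 genes of other organs, which was 8.19, 7.87 and 7.81. High probe sets of POMC, CHGA, ALB and PRL set that level high, and the median of the same 52 genes was 1.75, 1.80 and 1.80. Above the 95th percentile lay 4 members in the fibroblasts, 6 in isolate 1 and 5 in isolate 2. These are 8.51%, 12.8% and 10.6% of the members, beside 6.91%, 9.11% and 9.62% of all genes. The 3 members above it on all arrays, CTNNB1, CDH11 and GJA1, differed by -0.30 to 0.50, and 0 of them were over 2-fold from the fibroblasts. At the 90th percentile of 5.99, 4.87 and 4.69, the counts were 10, 17 and 20. The shares of 21.3%, 36.2% and 42.6% of members were higher on the arrays where that level was lower, as were those of all genes (28.5%, 46.8% and 50.5%). PERP, CDH3, PKP2, LSR and PKP4 exceeded this lower level of the array in both isolates and lay below it in the fibroblasts. CLDN6 exceeded it in isolate 2 only, and CLDN11 and GJB2 on no array. These counts depend in part on the level, which is highest on the fibroblast array. LSR (5.7 in both isolates), PKP4 (5.4 and 5.3) and PERP in isolate 1 (5.4) lie below the fibroblast level of 5.99. Folds of probe sets this low are uncertain in size, since RMA is known to compress them.

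Several members were read by over 1 probe set, which gives a check within the same arrays. For 20 members there were 24 further probe sets. Among the 9 members over 3-fold, 5 had further probe sets, and 2 of those 6 probe sets, the ones of PKP2 and JAM2, were over 3-fold the same way. The further probe sets of CLDN6, CLDN11 (2.2, 2.4 and 2.3) and GJB2 were not. Counting each gene by the mean of its probe sets, or by the probe set of lowest mean, left 5 of the 8 higher members over 3-fold in both isolates, which are PKP2, PKP4, PERP, CDH3 and LSR. By the probe set of lowest mean this is again 10.6% of the members, beside 2.00% of all genes. Of the 5 only PKP2 has a further probe set, so neither rule could change the others.

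**Figure D4:**
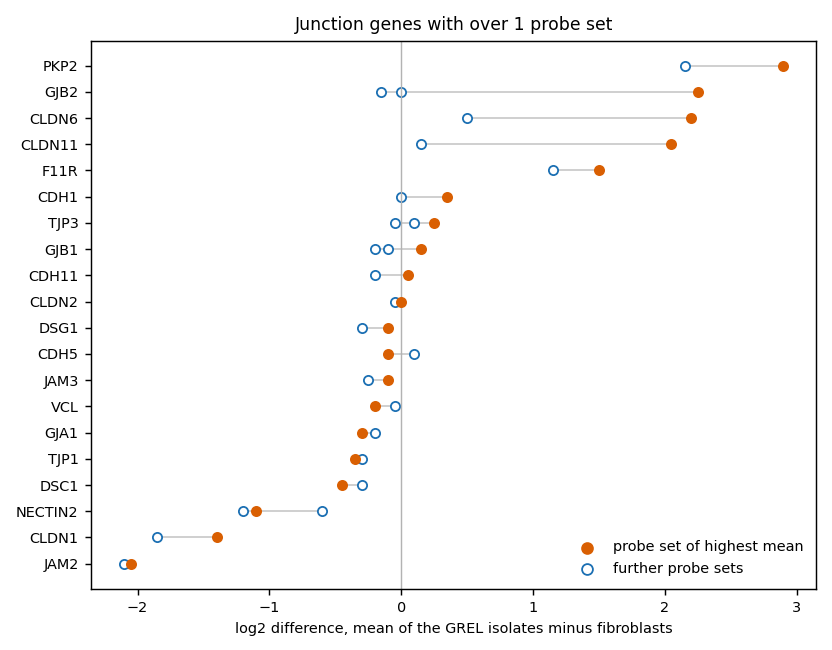
Difference of the GREL mean from the fibroblasts (x axis, log2) for each probe set of the 20 junction genes with over 1 probe set (y axis), with the probe set of highest mean filled and further probe sets open. The probe sets of PKP2, F11R, CLDN1, NECTIN2 and JAM2 lie on the same side, while the further probe sets of GJB2, CLDN6 and CLDN11 lie near 0 or well below the filled point.

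Several members are neighbours on the genome, with no other protein-coding gene between them in the RefSeq annotation of assembly ARS-UCD2.0, and their differences are given side by side. CDH3 lies next to CDH1, and their differences were 3.55 and 0.35. DSG1, DSC1, DSC2, DSC3 and CDH2 form a run in that order, with differences of -0.10, -0.45, 1.55, 0.45 and 1.25. CDH11 and CDH5 are adjacent with 0.05 and -0.10, and CLDN4 and CLDN3 with 0.20 and 0.45.

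Other junction genes, from a wider list of 93, were measured in 29 cases. Among them 2 were over 3-fold higher in both isolates, PRKCZ (1.7, 3.3 and 3.8), a polarity kinase at tight junctions, and CDH8 (3.2, 4.8 and 4.8), a cadherin known from neurons, and 0 were lower. Their median difference was 0.05, equal to that of all genes. Of 27 regulators of epithelial junctions, 14 were measured, with 0 over 3-fold higher and 1 lower. That was KLF4, a transcription factor of epithelial differentiation, at 5.4, 3.8 and 3.7. The related factor KLF5 was the highest by difference at 4.8, 6.3 and 6.8, and the grainyhead-like factor GRHL1 read 1.5, 2.4 and 2.1. The median of the regulators was -0.13, beside 0.05 over all genes, 0.58 over the simple epithelium markers and -1.25 over the stromal fibroblast markers. The regulators include both activators and repressors of epithelial genes, so their median has no clear direction.

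**Figure D5:**
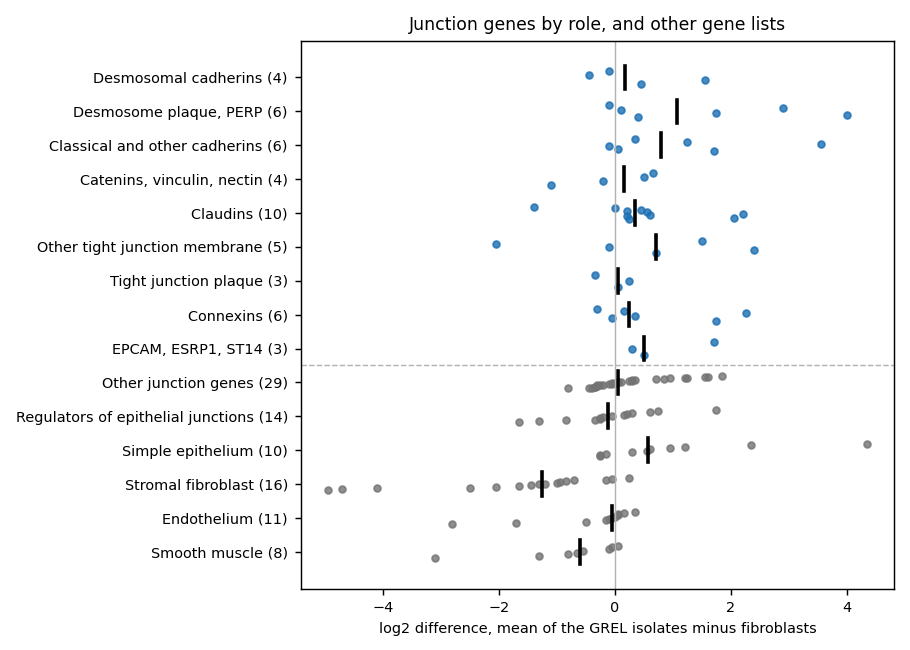
Difference of the GREL mean from the fibroblasts (x axis, log2) for each gene of the junction roles (blue, above the dashed line) and of other gene lists (grey), with the number of measured genes in brackets and the median as a black bar. The desmosome plaque and the cadherins reach the highest differences among the junction roles, and the stromal fibroblast markers lie mostly to the left of 0.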

How the data were processed

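RNA from 3 cultures (2 GREL isolates, 1 fibroblast culture) was hybridised to Affymetrix Bovine Genome Arrays. Before deposit, the authors corrected background by RMA, normalised the arrays by quantiles and took log2. The submitters' notes name Partek 6.5. The deposited log2 values carry 1 decimal. The build behind the array's annotation is not given in the sources used here, so no coordinates are printed. RefSeq's gene table (ARS-UCD2.0) served for names and neighbours.

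Of 24128 probe sets, 112 controls were left out and 24016 tested. Symbols came from the platform annotation: 13292 probe sets had 1 symbol, 86 had several and 10638 were unnamed here. Of the first, 13263 had their gene identifier in the RefSeq table, and 0 symbols were updated.

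GREL isolates and fibroblasts were compared with limma 3.58.1 (lmFit, eBayes, 1 residual degree of freedom, 0.55 prior degrees of freedom, adjusted p under 0.05) in R 4.3.3, and counts were made in Python 3.11.15. The fibroblast array was assumed to vary like the isolates. The isolates' rounded values were equal in 3513 probe sets. A gene was counted as over 3-fold where each isolate exceeded 3-fold, a rule without a test. The limma script was tested on simulated data. Every measured member could be named. Full statistics were kept for members over 3-fold in both isolates, for PKP2, CDH1, CDH2, CTNNB1, TJP1 and GJA1 (and OCLN, had it been measured), and for members whose isolates differed by over 1 log2 unit. At most the 2 highest and 2 lowest genes of other lists were named, besides KRT14, KRT15, KRT17, KRT18, FOXL2 and the bright genes of other organs. These were chosen after their values were seen. The members and lists were chosen with earlier results of these data known. The labels give 130 days for both isolates, and the study's methods put 1 isolate slightly younger. A planned count of promoter motifs was not run, and sequences are not analysed here. The number of arrays limits the precision.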

Additional observations from a re-analysis of the deposited data

How the results depend on the processing

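The count of members over 3-fold higher in both isolates was 8 (17.0%, beside 2.38% of all genes), against 13 at over 2-fold (all genes 5.80%), 4 at over 4-fold (0.961%), 5 with the mean over probe sets (1.96%) and 5 with the probe set of lowest mean (2.00%). It was 2 (PKP2 and CDH3; all genes 3.01%) among probe sets with a mean of at least 5, which only 14 members have, and both pass that filter through their GREL arrays, so it is no check of them. Under the 2 probe-set rules PKP4, PERP, CDH3 and LSR could not change, with 1 probe set each. Leaving out 1 isolate gave 10 (all genes 2.87%) to 11 (4.71%), and this count cannot fall below 8. The lower count of 1 became 0 at over 4-fold (all genes 1.32%) and 0 with the same filter (2.32%), and leaving out 1 isolate gave 1 to 2, where CLDN1 joined JAM2 without isolate 1. Quantile normalisation applied again and centred arrays left the same 8 and 1 members. Limma called 0 members, and 2 with a robust prior, where 295 of the 9155 genes were called higher. Members above the background level were 4, 6 and 5 (fibroblasts, isolate 1, isolate 2), beside 6.91%, 9.11% and 9.62% of all genes. At the 90th percentile they were 10, 17 and 20 (all genes 28.5%, 46.8% and 50.5%). At the median of the genes of other organs they were 33, 40 and 36 (all genes 87.4%, 84.2% and 85.1%). The median difference ranged from 0.25 to 0.45. Of 96 values of named members under other settings, 2 reversed: GJB2 at -0.15 with its probe set of lowest mean, and CDH1, which ranged from -0.40 without isolate 1 to 1.10 without isolate 2. The cause of the reversals was not tested. Many of the other values could not reverse. Members over 3-fold were picked for the same direction in each isolate, and genes with 1 probe set cannot change under the probe-set rules. Without either isolate each group has 1 array, so those values have no test. No paired analysis was possible because the fibroblasts have 1 array. Promoter motifs were not run.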

Other observations

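Markers of other ovarian cell types gave these values in the order fibroblasts, isolate 1, isolate 2. Of 7 measured germ cell markers, 0 were over 3-fold higher and 1 lower, KIT, the receptor of stem cell factor, at 5.7, 1.5 and 2.7, with summed log2 levels of 16, 11.6 and 13.2. Of 10 granulosa cell markers, 0 were over 3-fold different, with sums of 37.4, 36.4 and 35.5. The steroidogenic factor gene NR5A1 read 5.6, 4.4 and 4.3, and the follistatin gene FST 9.6, 8.6 and 8.8. Of 11 endothelial markers, 0 were over 3-fold higher and 2 lower, ENG (5.6, 3.0 and 2.6) and EMCN (4.7, 3.1 and 2.9), with sums of 27.4, 22.4 and 23.0. Of 8 smooth muscle markers, 1 was over 3-fold lower, the myosin light chain kinase gene MYLK at 10.6, 8.0 and 7.0, with sums of 61.0, 54.9 and 54.1. Of 10 blood cell markers, 0 were over 3-fold different, with sums of 19.0, 17.7 and 21.5, and each lay below the median of all probe sets on every array.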
